A study of Mus musculus with 6 samples.

Results

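Integrins are the membrane receptors with which cells hold the extracellular matrix, and laminins are the ligands that form the core of the basement membrane. The genes described here are the integrin subunit and laminin chain genes of mouse 3T3-L1 cells, a clonal fibroblast-like line that can turn into fat cells in culture. They were chosen by symbol from the annotation of the array: integrin alpha or beta subunits and laminin alpha, beta or gamma chains whose transcript cluster (the gene-level probe set of the array) carries 1 symbol. This gave 37 of 21154 genes with 1 symbol, 26 integrin and 11 laminin genes, each with 1 cluster. The cluster of Itga1 is shared with Pelo and was therefore not counted. Expression was measured on 6 Clariom S arrays, 3 from cells given Tsuru (an extract of Tsuruazuki) and 3 from control cells without it. Both groups were collected at day 9. Per the treatment protocol, confluent cells of both groups were induced with IBMX, insulin and dexamethasone, and were given insulin alone from day 3, whereas the sample titles call the control only maintained in medium. The protocol names dilutions of 1/1000 and 1/100 of a 100 mg/ml stock of the extract, and the labels do not tell which of them was arrayed. The labels name no separate cultures, so every p-value rests on the spread among these samples alone, and that spread may be technical.

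Each laminin is a trimer of an alpha, a beta and a gamma chain, which assembles inside the cell and polymerises at its surface. Each integrin is a pair of an alpha and a beta subunit, and the pair decides the ligand: some beta 1 pairs bind laminin, some bind collagen, and the pairs of alpha 5, alpha 8, alpha v and alpha 2b bind proteins with an RGD motif, such as fibronectin and vitronectin. Inside the cell, the beta tails bind talin and kindlin and so reach actin. Fat cells surround themselves with a basement membrane as they mature, and in 3T3-L1 cells the change from alpha 5 to alpha 6 integrin is a known part of adipogenesis.

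Log2 signals of all arrays had like medians, 5.43 to 5.59. Control replicate 1 stood apart, with a mean correlation of 0.987 with the other arrays, against 0.991 to 0.992 for the rest. Of a list of 10 interferon response genes, the median deviation from each gene's mean was 2.61 on that array, while the other controls had -1.02 and 0.041, and the Tsuru arrays ran from -1.25 to 0.27. Of 10 fat cell markers 9 had a mean above that of the negative control sets, 8 had a higher mean with Tsuru, and the median log2 difference was 0.24. Plin1, which encodes the lipid droplet coat protein perilipin, and Cfd, which encodes adipsin, were higher at the study's threshold given below, by 0.90 and 1.09. Of 9 preadipocyte and fibroblast markers 6 had a mean above the negative sets, and the median difference of the 9 was 0.019. Among them 1, the preadipocyte factor gene Zfp423, was higher at that threshold, by 0.48. Of all clusters 5.75% were higher at that threshold, and of those with a mean above the negative sets 9.82%. For the fat cell list, linear signals were summed and the sum was put on the log2 scale. It ran from 19.28 to 19.60 with Tsuru and from 19.04 to 19.34 in the controls. The brightest genes of a list weigh most in such a sum. The part of these markers in the results below was not tested. Fewer cells of a type and less RNA per cell cannot be told apart in these bulk samples.

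A gene was counted as above background on an array where its log2 signal exceeded the mean of the 5222 negative control sets of that array, which ran from 5.75 to 6.01. On all 6 arrays 13 of the 37 genes did so, and 10 had a mean above 9.35, under which 95% of the negative sets lay. These 10 were the laminin genes Lama4, Lamb1 and Lamc1 and the integrin genes Itgb1, Itga5, Itga6, Itgav, Itgb3, Itgb5 and Itgb7. Together the 3 laminin chains make up a trimer of alpha 4, beta 1 and gamma 1, the laminin known from vessel, muscle and fat cell basement membranes. Lamb2, Itga8 and Itga2b were the others above background on all arrays. The mean over the 6 arrays lay at or under that of the negative sets, 5.87, for 22 genes, among them Lama1, Lama2, Lama3, Lama5, Lamb3, Lamc3 and all leukocyte integrin genes but Itgb7. Differences of such dim genes are not exact, and no fold is given for them. Signals of different clusters were not ranked against each other, since probes differ in brightness.

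**Figure D1:**
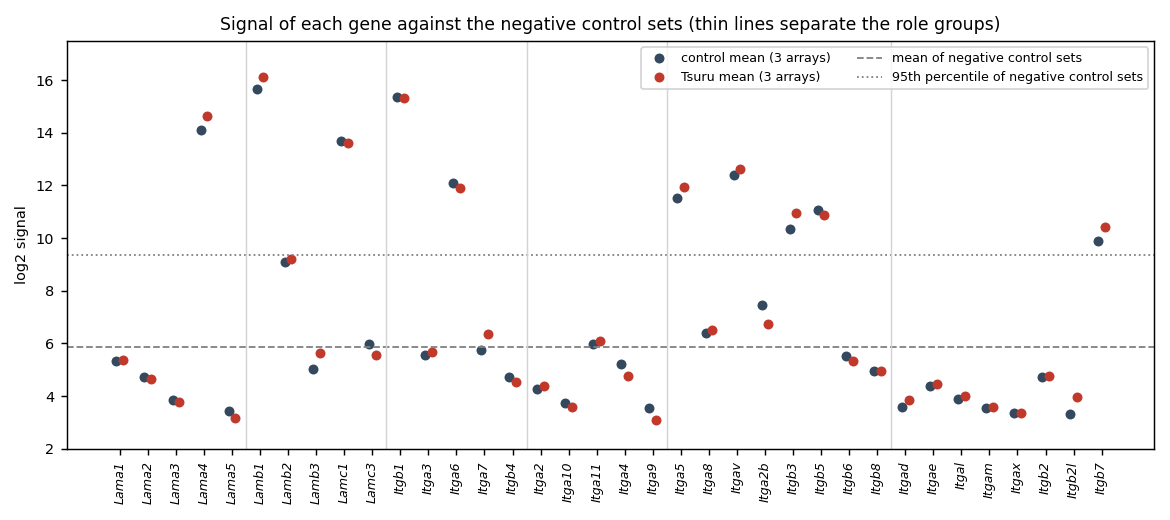
Mean log2 signal (vertical axis) of 36 integrin and laminin genes in the 3 control arrays (dark) and the 3 Tsuru arrays (red), with the mean (5.87, dashed) and the 95th percentile (9.35, dotted) of the negative control sets. The dotted line has 10 genes above it in both groups, and most leukocyte integrin genes and epithelial laminin chains lie under the dashed line.

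None of the integrin and laminin genes passed a test adjusted over the whole array (limma, Benjamini-Hochberg over 22206 clusters): 0 of 37 had an adjusted p below 0.05, the smallest being 0.342. Over the whole array 0% of clusters did. The study's own threshold is an unadjusted p under 0.05 with a linear fold above 1.1. It was passed by 5 of the 37 genes, where 11.1% of all clusters passed it. Lama4, Lamb1, Itgb3 and Itgb2l were higher with Tsuru (5.75% of all clusters were), and Itga2b was lower (5.38% of all clusters were). The share of the members is thus close to that of the array as a whole. For 9 genes the groups did not overlap, every Tsuru array being above, or every one below, all the controls, against 16.8% of all clusters. Of these, 4 were higher with Tsuru (9.06% of all clusters) and 5 lower (7.75% of all clusters). The median log2 difference over the 37 genes was 0.029, against 0.0070 over all genes, and 20 of them had a higher mean with Tsuru. Among the 15 genes with a mean above the negative sets the median was 0.13, against 0.10 over all genes above that level. Of those 15, 3 were higher and 1 lower at the study's threshold, where 9.82% and 3.24% of all such clusters were (13.1% in either direction), and 5 had groups that did not overlap, where 19.2% of all such clusters did. Of the 22 dimmer genes 1 passed, where 9.5% of all such clusters did. By the authors' deposited table, 4 of the 37 genes were higher at this threshold and 3 lower (11.9% of its clusters passed, 6% higher and 5.89% lower). All 5 named above were among these 7 in the authors' deposited table, together with Itga9 and Lamc3, both lower with Tsuru and both dim.

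**Figure D2:**
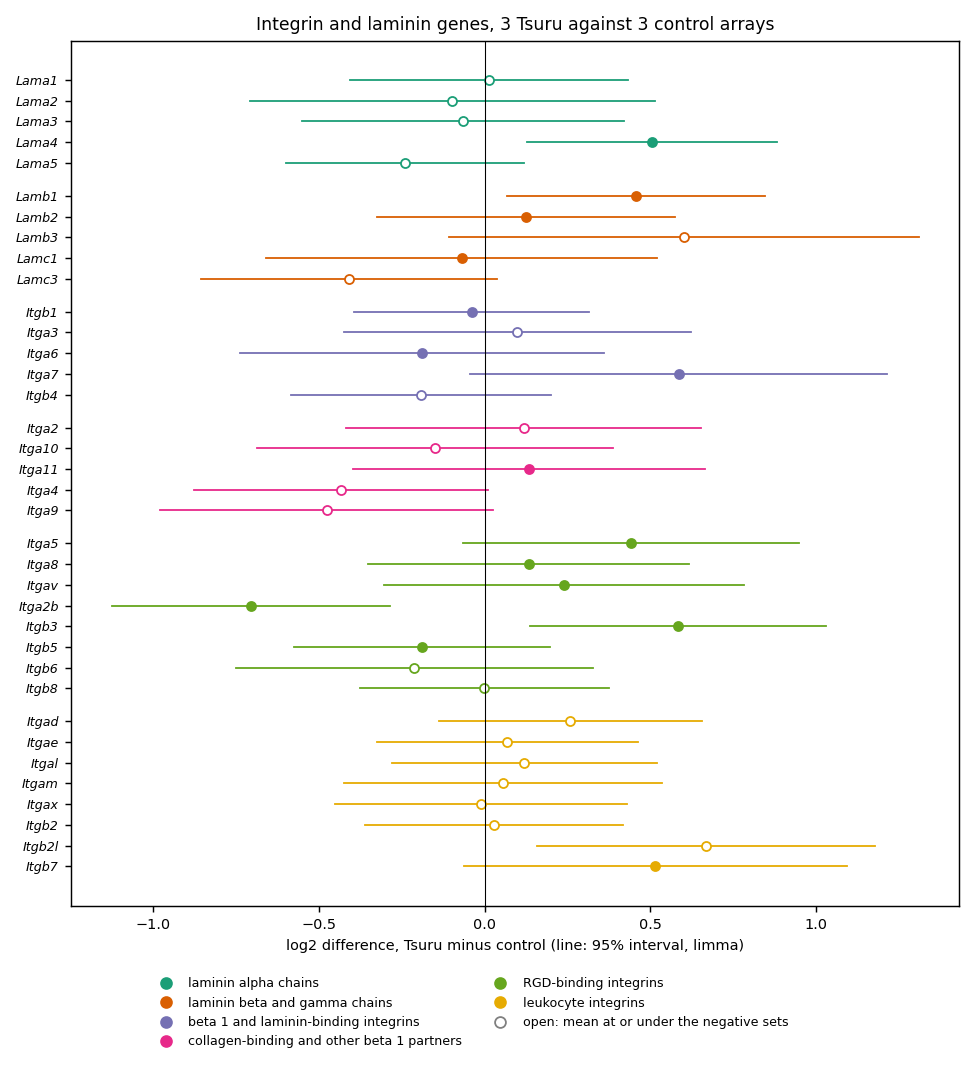
Log2 difference, Tsuru minus control (horizontal axis), of 36 of the genes, with 95% intervals from limma, coloured by role; open points are genes whose mean lies at or under that of the negative sets. The intervals of Lama4, Lamb1, Itgb3, Itgb2l and Itga2b exclude 0, and Itga2b is the gene of these with the lower signal under Tsuru.

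The genes above background on all arrays whose groups did not overlap were Lama4, Lamb1, Itga5 and Itgb3, each higher with Tsuru, and Itga2b, lower. RefSeq promoter windows, 250 bases before to 50 after the start, were at hand for 23 of the 37 genes, and for 3 of these 5. They are shown because the groups of these 3 genes were apart, in different directions. The windows are on GRCm38.p6, at chr12:31265043-31265342 on the plus strand for Lamb1, chr15:103366742-103367041 on the minus strand for Itga5, and chr11:102469834-102470133 on the minus strand for Itga2b. Capitals mark matches, on either strand, to the GC box GGGCGG (in 35.6% of 32817 promoter windows of this length) and the CCAAT box CCAAT (37.4%). TATAAA (13.6%), the AP-1 letters TGANTCA (7.81%) and the GATA letters AGATAA (11.2%) were searched as well, and no motif overlapped another.
Lamb1: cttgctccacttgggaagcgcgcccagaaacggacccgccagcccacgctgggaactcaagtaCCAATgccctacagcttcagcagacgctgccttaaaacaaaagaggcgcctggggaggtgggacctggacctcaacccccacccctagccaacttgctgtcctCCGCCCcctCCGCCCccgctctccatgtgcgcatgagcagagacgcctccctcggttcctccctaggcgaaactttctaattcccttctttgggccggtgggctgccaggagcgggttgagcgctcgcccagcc
Itga5: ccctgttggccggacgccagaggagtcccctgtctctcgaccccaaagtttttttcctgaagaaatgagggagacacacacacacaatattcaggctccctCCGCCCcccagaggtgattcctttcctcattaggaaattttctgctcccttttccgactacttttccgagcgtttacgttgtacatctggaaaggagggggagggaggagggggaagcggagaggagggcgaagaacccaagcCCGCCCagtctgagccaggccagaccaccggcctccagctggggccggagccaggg
Itga2b: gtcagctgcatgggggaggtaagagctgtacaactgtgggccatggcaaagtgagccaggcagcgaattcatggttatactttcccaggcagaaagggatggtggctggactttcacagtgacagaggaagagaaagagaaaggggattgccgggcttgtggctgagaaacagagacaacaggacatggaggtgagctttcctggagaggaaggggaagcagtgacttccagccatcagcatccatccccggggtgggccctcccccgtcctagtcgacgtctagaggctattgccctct
The Lamb1 window held the CCAAT box letters 187 bases before the start and the GC box letters at 84 and 75 bases before it. The Itga5 window held GC box letters at 149 and 6 bases before the start. None of the 5 sets of letters was found in the Itga2b window. These matches describe the letters of the windows and are not binding data.

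Among the laminin genes, those of the alpha 4 and beta 1 chains were higher with Tsuru at the study's threshold, and that of the gamma 1 chain did not pass it. Lama4 read 14.66, 14.68 and 14.55 with Tsuru and 13.90, 14.22 and 14.25 without. All Tsuru values lay above all control values, with control replicate 1 the lowest. The log2 difference was 0.50 ± 0.17 (SE, n = 3 arrays per group), a fold of 1.42 (limma, unadjusted p = 0.0139, adjusted p = 0.374). Lamb1, the beta chain of many laminins, read 16.18, 16.18 and 16.04 against 15.71, 15.87 and 15.44. Here too the groups were apart, with control replicate 3 the lowest. Its difference was 0.46 ± 0.17 (SE), a fold of 1.37 (limma, unadjusted p = 0.0258, adjusted p = 0.406). Lamc1, the gamma chain that both of them join, read 13.63, 13.83 and 13.37 against 13.86, 14.11 and 13.07. The control values spanned the Tsuru values, and the difference was -0.069 with a 95% interval of -0.66 to 0.52. That interval contains the differences of Lama4 and Lamb1, and whether Lamc1 differed from them was not tested. Lamb2, the beta chain of the neuromuscular junction and the kidney filter, differed by 0.12, with an interval of -0.32 to 0.57.

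The other laminin genes described here were dim. Lamb3, the beta chain of the skin laminin, had 1 Tsuru array and no control array above background and differed by 0.60 ± 0.32 (SE). With single arrays left out it ran from 0.37, without control replicate 1, to 0.92, without control replicate 2. It was 0.41 without Tsuru replicate 1 and 0.89 without Tsuru replicate 3, and of these fits it passed in those with 0.89 and 0.92. In the authors' deposited table it was 1.245 and did not pass. With the replicate number as a block it was 0.60 and passed. Lama3, the alpha chain of that trimer, differed by -0.064. Lamc3 had lower values on all Tsuru arrays, 5.67, 5.40 and 5.66 against 6.35, 5.86 and 5.75, of which only control replicate 1 was above background. Lama5 also had groups that did not overlap, with means of 3.18 and 3.42, both under background. Lama1 and Lama2 differed by 0.014 and -0.097.

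The genes of the beta 1 subunit and of the laminin-binding integrins did not pass the study's threshold. Itgb1, the partner of most alpha subunits, read 15.25, 15.45 and 15.30 with Tsuru and 15.30, 15.45 and 15.37 without. The values of the groups overlapped, and the difference was -0.039, with a 95% interval of -0.39 to 0.31. Itga6, which binds laminin with beta 1 or beta 4, read 12.10, 11.95 and 11.62 against 12.13, 12.52 and 11.59. Control values lay on both sides of the Tsuru values, and the difference was -0.19 ± 0.25 (SE). Itga7, a laminin receptor subunit known from muscle, differed by 0.58 ± 0.28 (SE), with all 3 Tsuru arrays but only 1 control array above background, and with single arrays left out it ran from 0.32, without Tsuru replicate 2, to 0.81, without control replicate 2, the only one of these fits in which it passed. It was 0.35 without control replicate 3 and 0.23 in the authors' deposited table. The muscle marker list beside it had 1 of 6 genes with a mean above the negative sets and a median difference of -0.17. Of its genes the dim Myog was lower at the study's threshold, at -0.64, where 5.38% of all clusters were lower. Itga3 and the hemidesmosome subunit Itgb4 were dim and differed by 0.099 and -0.19.

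**Figure D3:**
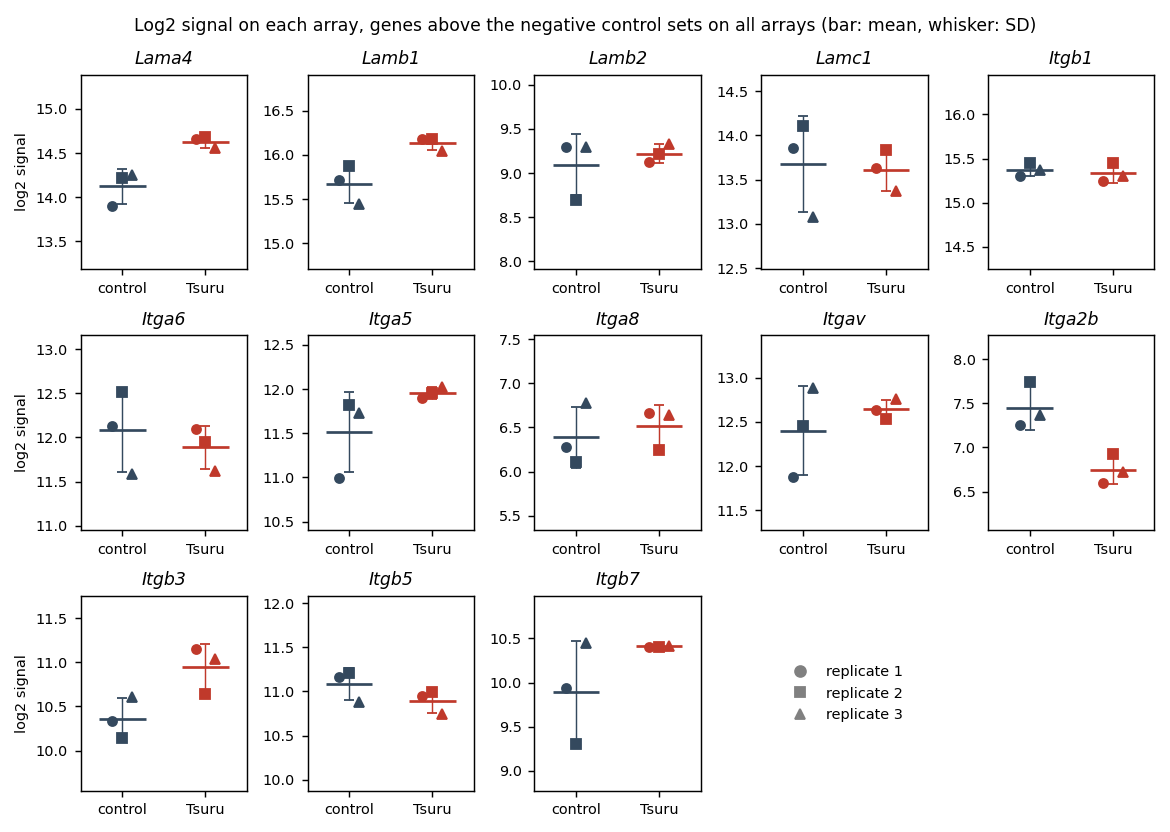
Log2 signal (vertical axis, each panel spanning the same range) of the 13 genes above background on all arrays, by group, with symbols for the replicates, bars for the means and whiskers for the SD over 3 arrays. Lama4, Lamb1, Itga5 and Itgb3 are higher on every Tsuru array than on any control array and Itga2b is lower, while the points of the other 8 genes overlap.

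Of the fibronectin receptor and vitronectin receptor subunits, Itgb3 was higher with Tsuru at the study's threshold; of its alpha partners Itgav did not pass it and Itga2b was lower. Itgb3 encodes beta 3, which pairs with alpha v in many cells and with alpha 2b in platelets. It read 11.16, 10.64 and 11.04 with Tsuru and 10.34, 10.14 and 10.61 without. The groups were apart by 0.037 only, between Tsuru replicate 2 and control replicate 3. The difference was 0.58 ± 0.20 (SE) with a 95% interval of 0.14 to 1.03 (limma, unadjusted p = 0.0157, adjusted p = 0.374). Itgav, the alpha v subunit, read 12.64, 12.54 and 12.76 against 11.88, 12.45 and 12.88. Its controls spread on both sides of the Tsuru values, and the difference was 0.24 with a 95% interval of -0.30 to 0.78. Of the other beta partners of alpha v, Itgb5 had means of 10.90 ± 0.14 and 11.08 ± 0.18 (SD, n = 3 arrays each), with groups that overlapped and a difference of -0.19 ± 0.17 (SE). The dim Itgb6 and Itgb8 differed by -0.21 and -0.00027.

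Itga2b, the alpha subunit of the platelet fibrinogen receptor, was lower with Tsuru and had the smallest p of the 37 genes. It read 6.60, 6.92 and 6.72 with Tsuru and 7.25, 7.74 and 7.36 without. No values overlapped, and all of them exceeded the mean of the negative sets. The difference was -0.70 ± 0.19 (SE), a fold of 1.63 between control and Tsuru (limma, unadjusted p = 0.00393, adjusted p = 0.342). Its mean, 7.10, exceeded 78.3% of the negative sets, so it lies in a range that many of these sets reach. None of 5 measured platelet and megakaryocyte markers had a mean above the negative sets, among them the defining genes Gp1ba, Gp9 and Pf4, and only Gp9 had a single array, a control, above background. The log2 of the summed linear signals of these markers was 6.77 to 6.85 with Tsuru and 6.93 to 7.19 without. This was in the direction of Itga2b, and the part of these markers in the Itga2b difference was not tested.

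Itga5, the alpha subunit of the classical fibronectin receptor, read 11.90, 11.95 and 12.02 with Tsuru and 10.99, 11.82 and 11.73 without. All Tsuru values lay above the controls, and control replicate 1 was far under the other controls. The difference of 0.44 ± 0.23 (SE) did not pass the study's threshold (limma, unadjusted p = 0.0800, adjusted p = 0.493), and it was 0.18 without control replicate 1. Without control replicate 2 it was 0.59 and passed, and in the authors' deposited table it was 0.14 and did not. The alpha 5 and alpha 6 genes thus had differences of opposite sign, 0.44 and -0.19, neither past the threshold. The alpha 6 difference changed sign, to 0.032, without control replicate 2. Whether the differences of these genes were unlike was not tested. Itga8, which binds nephronectin, differed by 0.13 ± 0.22 (SE).

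The receptors for collagen and the remaining beta 1 partners were dim, apart from the fibroblast collagen receptor gene Itga11, which was above background on 4 of the 6 arrays and differed by 0.13 ± 0.24 (SE). Itga2 and Itga10, 2 other collagen receptor genes, differed by 0.12 and -0.15. Itga4 read 4.51, 4.91 and 4.92 with Tsuru and 5.51, 5.08 and 5.04 without. Itga9 read 3.14, 2.96 and 3.15 against 4.05, 3.42 and 3.20. Both had lower values on all Tsuru arrays, but no array of either group was above background.

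Leukocyte integrin genes were under background, with Itgb7 as the exception. Itgal, Itgam, Itgax, Itgad, Itgae and Itgb2 had 0 arrays above background in either group, and their differences ran from -0.010 for Itgax to 0.26 for Itgad. The genes Itgam, Itgax and Itgad are neighbours in the RefSeq gene table. Itgb2l, named for its likeness to beta 2, passed the study's threshold at 0.67 ± 0.23 (SE; limma, unadjusted p = 0.0153, adjusted p = 0.374). Its means were 3.98 and 3.31, both under background, and its groups overlapped. Itgb7, whose product pairs with alpha 4 or alpha E in lymphocytes, read 10.40, 10.41 and 10.42 with Tsuru and 9.93, 9.31 and 10.44 without. The Tsuru arrays were level with each other and with control replicate 3, and the other controls were lower. Its difference of 0.51 ± 0.26 (SE) did not pass (limma, unadjusted p = 0.0753, adjusted p = 0.488), and it rested on single controls: without control replicate 3 it was 0.79 and passed, and without control replicate 2 it was 0.22 (unadjusted p = 0.319 in limma). Of 10 macrophage and leukocyte markers 3 had a mean above the negative sets, and the defining genes Ptprc, Csf1r, Adgre1 and Tyrobp did not. The median difference of the 10 markers was -0.076. Of them 2, Lyz2 and Mrc1, were lower with Tsuru at the study's threshold, where 5.38% of all clusters were. The groups of both genes overlapped, and both had their highest value on control replicate 1, at 7.88 and 6.70. Lyz2 was above background on 1 Tsuru array and 3 control arrays. Mrc1 was dim, with 0 Tsuru arrays and 2 control arrays above background. The log2 of the summed linear signals of the 10 markers was 8.55 to 8.68 with Tsuru and 8.80 to 9.36 without. Only 3 of these markers had a mean above the negative sets. The summed signal was lower with Tsuru, whereas Itgb7 and Itgb2l were higher. Of the 10 markers 3 had a higher mean with Tsuru. The part of these markers in the differences of Itgb7 and Itgb2l was not tested.

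Of the 5 genes past the study's threshold, Lama4 and Itga2b passed it with any array left out, and the other 3 did not. Lama4 ran from 0.39 without control replicate 1 to 0.57 without control replicate 3, and Itga2b from -0.80 without control replicate 1 to -0.56 without control replicate 2. Lamb1 missed the threshold when control replicate 3 was left out, at 0.34, and when Tsuru replicate 1 or 2 was, at 0.43 in either case. Itgb3 missed it when control replicate 2 was left out, at 0.47, and when Tsuru replicate 1 or 3 was, at 0.48 and 0.54. Itgb2l missed it without the same arrays as Itgb3, with a lowest value of 0.55. In these fits with 5 arrays 0 of the 37 genes had an adjusted p below 0.05. Without Tsuru replicate 1 only 1 of the 37 was higher at the study's threshold, in place of 4. Without control replicate 3, 5 were lower in place of 1, Itga4, Itga9, Itgb6 and Lamc3 having joined Itga2b. Median centring of the arrays and quantile normalization changed the direction of none of these 5 genes, nor did the authors' deposited table.

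**Figure D4:**
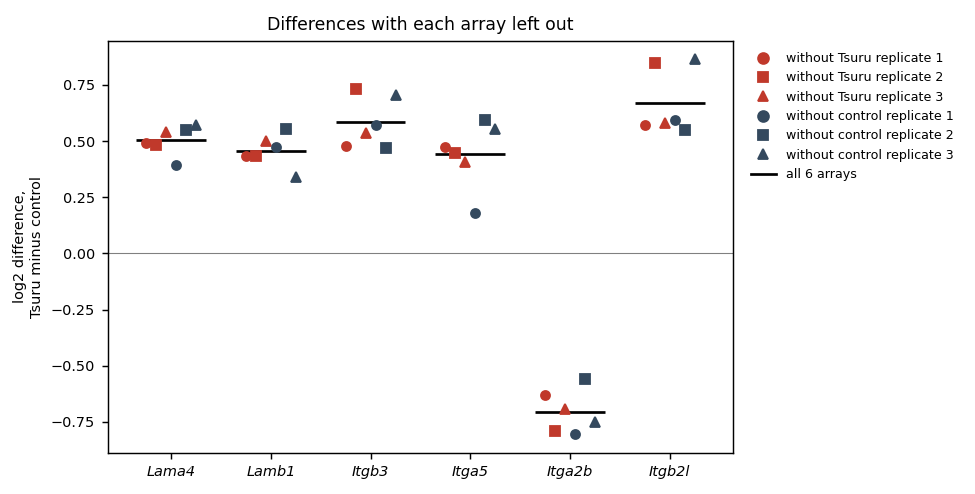
Log2 difference, Tsuru minus control (vertical axis), of 6 genes with all 6 arrays (black bars) and with each array left out (red, a Tsuru array; dark, a control array). All values keep their sign, those of Itga2b under 0 and those of Lama4, Lamb1, Itgb3, Itga5 and Itgb2l above it; Itga5 drops to 0.18 without control replicate 1, and Lama4 stays between 0.39 and 0.57.

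The genes around the integrins and laminins were described in 5 lists with 97 measured genes, of which 12 were higher and 5 lower with Tsuru at the study's threshold and 0 at an adjusted p under 0.05. Over the whole array 5.75% of clusters were higher and 5.38% lower, and of the clusters with a mean above the negative sets, where 75 of these 97 genes lie, 9.82% were higher and 3.24% lower. The median log2 difference of all 97 was 0.15, against 0.0070 over all genes and 0.10 over all genes above the negative sets. The count of 12 higher genes depended on which array was left out. It was 3 without control replicate 1, 3 without Tsuru replicate 2, 4 without Tsuru replicate 1 and 7 without control replicate 2. Without Tsuru replicate 3 it was 8, and without control replicate 3 it was 16. Over the whole array these smaller fits called 1659 to 3616 clusters, in place of 2472. The count of 5 lower genes was 3 without Tsuru replicate 1 and 3 without Tsuru replicate 2. Among 20 basement membrane partners, 13 of them with a mean above the negative sets, 4 were higher and 2 lower, to be read against those 9.82% and 3.24% of clusters above the negative sets and 5.75% and 5.38% of all clusters. Col15a1, a collagen that sits in the basement membrane zone, differed by 0.69 ± 0.19 (SE). It read 10.04, 9.75 and 10.03 with Tsuru and 8.97, 9.45 and 9.35 without. Nid2, a nidogen, which links laminin to collagen IV, differed by 0.55 ± 0.19 (SE) and the matrix glycoprotein gene Fbln2 by 0.57 ± 0.24 (SE). The fourth was the perlecan gene Hspg2, at 0.48 ± 0.21 (SE). Col15a1, Fbln2 and Hspg2 had their lowest value on control replicate 1. Egflam and Col4a4, the lower pair, were under background on all arrays.

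Non-integrin receptors for laminin had 4 higher genes and 1 lower of 14, of which 11 had a mean above the negative sets, where 9.82% of clusters were higher and 3.24% lower. Dag1 encodes dystroglycan, which binds laminin alpha chains at the surface, and it read 15.88, 15.83 and 16.18 with Tsuru and 15.03, 15.27 and 15.75 without. The groups did not overlap, and the difference was 0.61 ± 0.21 (SE). Sspn and Sgcb, members of the dystroglycan-associated complex, differed by 0.84 ± 0.31 (SE) and 0.52 ± 0.20 (SE), and the syndecan gene Sdc2 by 0.47 ± 0.20 (SE). Bcam, which encodes a receptor for laminin alpha 5, was the lower gene, at 6.20, 6.34 and 5.84 against 7.15, 6.73 and 6.84, a difference of -0.78 ± 0.20 (SE). It was above background on 2 Tsuru arrays and 3 control arrays, and its mean exceeded only 69.2% of the negative sets. Dag1, Sspn, Sdc2 and Sgcb all had their lowest value on control replicate 1, and of these only Sgcb had groups that overlapped.

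Inside the cell, 2 of 30 adaptor and kinase genes were higher and 0 lower, a share of higher genes close to the 5.75% of all clusters and under the 9.82% of clusters above the negative sets. Of all clusters 5.38% were lower, and of those above the negative sets 3.24%. Fermt2, the kindlin gene of fibroblasts, which binds beta tails, differed by 0.57 ± 0.22 (SE) and the focal adhesion gene Zyx by 0.38 ± 0.16 (SE). The next smallest p-values belonged to Itgb1bp2 at -0.38 and Ptk2b at 0.37, both dim and neither past the threshold. Of 12 tetraspanins and membrane partners, Cd151, which binds laminin-binding integrins, was higher by 0.59 ± 0.23 (SE), and Cd53, a tetraspanin known from leukocytes, was lower at -0.47 ± 0.19 (SE). All 12 had a mean above the negative sets, where 9.82% of clusters were higher and 3.24% lower (5.75% and 5.38% of all clusters). Fermt2 and Cd151 had their lowest value on control replicate 1. Bsg and Tspan4 differed by 0.30 and 0.28 and did not pass. Of 21 other integrin ligands, the fibrillin gene Fbn1 was higher by 0.50 ± 0.22 (SE). Its groups overlapped, and its lowest value was on control replicate 1. The tenascin gene Tnn was lower at -0.84 ± 0.25 (SE) with no array above background. Thus 1 of the 21 ligand genes was higher and 1 lower, where 5.75% and 5.38% of all clusters were. Edil3 and Cyr61, which encode secreted integrin ligands, differed by 0.47 and 0.43 and did not pass. Fn1, which encodes fibronectin, the ligand of alpha 5 beta 1, read 18.74, 18.68 and 18.64 with Tsuru and 18.46, 18.51 and 18.50 without. Its groups were apart, but the difference of 0.20 did not pass the threshold (limma, unadjusted p = 0.216).

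**Figure D5:**
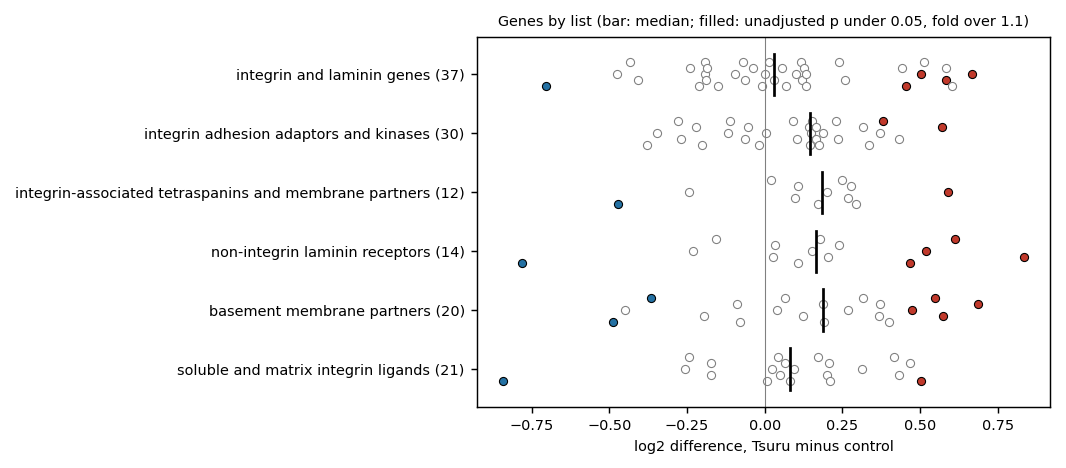
Log2 difference, Tsuru minus control (horizontal axis), of the 37 integrin and laminin genes and of 5 lists of related genes, with the number measured in brackets; filled points passed the study's threshold (red higher, blue lower) and bars are medians. The median is 0.029 for the integrin and laminin genes and runs from 0.081 to 0.19 for the lists.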

How the data were processed

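The members and gene lists were chosen with earlier results of these data known. The authors deposited log2 signals made with Transcriptome Analysis Console 4.0.2 by SST-RMA, which transforms probe signals and then runs RMA, per the series design text; genome build and annotation version are not given in the sources used here. The authors' deposited table of p-values and of fold changes, a signed score that is negative where lower with Tsuru per the file headers, was made by ANOVA moderated by empirical Bayes, as the series design text says. Its group averages differed from the means of the value table by a median of 0.11 for the 37 genes, and it gave the same sign for 31, the opposite sign for 5 and no change for 1. Groups and replicate numbers came from sample titles.

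All 22206 transcript clusters entered 1 model of group in limma (version 3.58.1, under R version 4.3.3), moderated with eBayes and no trend (no filter on dim signals, Benjamini-Hochberg adjustment over all clusters). Control sets were left out of the fit and used as background. Errors are moderated standard errors, and intervals are 95%. Only 6 arrays were measured, which limits the precision: the median standard error was 0.20 for the 37 genes. At most 10 values were identical between a pair of arrays, so no array was a copy of another. Each array counted as a sample. That check cannot tell separate cultures from technical repeats. Counts cover all 37 genes, and values are given for 36; the other is not reported here. The named genes were these members, with array values for those past the study's threshold, with separate groups, or central in fibroblasts, and up to 4 genes of each list by smallest p. Where a count of 5 or fewer called for another name (Hspg2, Col4a4, Sdc2, and marker genes past the threshold), or a gene was singled out (Fn1, and the array values of Itgb7), it was chosen after its values were seen. The fit was tested on simulated data. Alternatives were single arrays left out, the replicate number as a block, other scalings, a filter, other variance models, the mean over clusters of a gene, and the authors' table.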

Additional observations from a re-analysis of the deposited data

How the results depend on the processing

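The 0 of 37 integrin and laminin genes at an adjusted p under 0.05 held under all alternatives tried, and 5 passed at an unadjusted p under 0.05. Over the whole array 0 clusters passed adjustment in every fit but the one without control replicate 3, so leaving out single arrays gave 0 to 25; limma with only clusters above the negative sets called 1338 at the study's threshold in place of 2472, with fewer clusters tested. With single arrays left out, 1 to 5 of the 37 genes were higher and 1 to 5 lower, and of the list genes 3 to 16 were higher and 3 to 6 lower. The replicate block gave 7 higher and 2 lower, a variance trend 2 lower, ANOVA without empirical Bayes 2 lower, and, by the authors' deposited table, there were 3 lower. Of the list genes 6 were higher with that ANOVA and 7 after quantile normalization, while 3 were lower with array medians subtracted and 2 with the filter, which removes dim genes. The mean over clusters changed no member, since each has 1. The replicate numbers share only a number: deviations of same-numbered arrays correlated at 0.0020, 0.0059 and 0.19, and not every array correlated best with its own number. None of the 5 integrin and laminin genes past the study's threshold changed direction under any alternative; the list genes were only counted, and their single values were not followed. Other members, none of them past that threshold, did. After quantile normalization the log2 differences were Lama2 0.0062, Lama3 0.015, Lamb2 -0.0041, Itgb8 0.097 and Itgax 0.038. With array medians subtracted they were Lama3 0.016, Lamc1 0.012, Itgb1 0.041, Itgb8 0.080 and Itgax 0.070. In the authors' deposited table they were Lamb2 -0.014, Itga3 -0.24, Itga10 0.070 and Itgb2 -0.084. With single arrays left out the range was -0.42 to 0.18 for Lama2, -0.098 to 0.0036 for Itgb1, -0.072 to 0.10 for Itgb8, -0.015 to 0.24 for Itgal, -0.087 to 0.15 for Lama1, -0.27 to 0.11 for Lama3, -0.015 to 0.17 for Itgae, -0.038 to 0.15 for Itgb2, -0.37 to 0.14 for Lamc1 and -0.16 to 0.24 for Itga3. It was -0.10 to 0.23 for Itgam, -0.17 to 0.12 for Itgax, -0.077 to 0.33 for Itga11, -0.026 to 0.48 for Itgav, -0.074 to 0.23 for Lamb2, -0.43 to 0.032 for Itga6, -0.0076 to 0.33 for Itga8, -0.098 to 0.37 for Itga2 and -0.29 to 0.12 for Itga10. For members that kept their sign, the range was 0.22 to 0.79 for Itgb7, 0.32 to 0.81 for Itga7 and 0.37 to 0.92 for Lamb3. The cause of these changes was not tested. Signals at or under the negative sets limit what 22 of the genes can show.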
